A study of Rattus norvegicus with 24 samples.

Results

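The genes described here are 59 transcription factors of body patterning in the rat: 22 Hox genes and 37 genes of the families Tbx (6), Pax (6), Irx (5), Lhx (5), Six3/Six4/Six5/Six6 (4), Dlx (3), Meis (3), Pbx (3) and Msx (2). They were taken by name alone, as every gene of these families whose symbol is the only one given to an array probe set, out of 14217 named genes. A probe set is the group of short DNA probes on the array that together measure one transcript. The 59 genes had 75 probe sets, and each gene is represented by the one with the highest mean log2 signal over all 24 arrays. The 24 arrays measured 24 h fasted and fed male Wistar rats, an outbred laboratory strain carrying no engineered allele, in interscapular brown adipose tissue (BAT), perinephrial white adipose tissue (WAT) and liver. All rats were 8 weeks old when sampled and had been offered food only between hours 10 and 16 of each day for 7 days. On day 8 the fed rats (animals 1, 2, 4 and 5) were given food and the fasted rats (animals 6, 8, 9 and 10) were not, which gave 6 groups of n = 4 arrays: fasted and fed BAT, fasted and fed WAT, and fasted and fed liver.

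Hox genes encode homeodomain proteins that give cells their position along the axis of the body. They lie side by side in 4 clusters, and within a cluster low-numbered genes are active towards the head and high-numbered genes towards the tail. Many adult cells of mesenchymal origin, fat precursors among them, keep part of the Hox pattern of the body level they came from. Proteins of the Meis and Pbx families bind DNA together with Hox proteins. Tbx, Pax, Irx, Lhx, Dlx and Msx factors, and Six4 with its relatives, act in the making of limb, heart, kidney, eye, brain and muscle, and several of them have been used in mouse and human work to tell fat depots apart. BAT from between the shoulder blades is heat-producing fat, WAT around the kidney is storage fat, and the liver is an organ of endodermal origin.

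The values are array intensities scaled to a common mean, called signal below, with no unit. A gene was taken as above background in a tissue where its mean signal over the 8 arrays passed 17.2, the 95th percentile of 29 probe sets of smell, taste and pheromone receptors. Differences are log2 of one tissue or state over the other, and a gene is called where the adjusted p of the limma fit over all 14217 genes is under 0.05. Signals of different probe sets were not compared with each other, since each probe set has its own brightness. In whole tissue, fewer cells of a type and less RNA per cell cannot be told apart.

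The tissues carried their own markers. All 9 measured brown adipocyte markers were higher in BAT than in WAT, all 10 hepatocyte markers were lower in BAT and in WAT than in liver, and none of 10 kidney tubule markers passed the background limit in either fat. Markers of other cell types moved between groups as well. Summed signals of 15 skeletal muscle genes lay between 57764 and 74152 in fasted BAT, between 4905 and 48079 in fed BAT (the highest in animal 5), between 1737 and 57042 in fasted WAT (high in animals 8 and 10) and between 1932 and 2142 in fed WAT. Of 8 mesothelial markers, 6 were lower in BAT than in WAT. So were 9 of 9 macrophage markers and 5 of 8 fibroblast markers. Summed lymphoid markers reached 2176 in fasted WAT and 4013 in fed WAT, against 155 in fasted BAT and 209 in fed BAT. Each tissue was scanned on days of its own, so scan day and tissue cannot be told apart.

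Of the 59 genes, 36 were above background in at least 1 tissue: 31 in BAT, 28 in WAT and 15 in liver. Over all genes these shares were 74.9% in BAT, 74.3% in WAT and 69.8% in liver. The Hox genes made up much of the gap between fat and liver, with 14 of 22 above background in BAT, 16 in WAT and 4 in liver. Among the 37 other factors, 17 passed in BAT, 12 in WAT and 11 in liver. In all 3 tissues 13 genes passed (Hoxa5, Hoxb2, Hoxb3, Hoxb6, Meis1, Meis2, Meis3, Msx1, Pbx2, Pbx3, Six5, Tbx2 and Tbx3), and in BAT and WAT but not liver another 12 (Dlx5, Hoxa7, Hoxa9, Hoxb4, Hoxb7, Hoxc4, Hoxc5, Hoxd4, Hoxd8, Hoxd9, Six4 and Tbx18). Above background in BAT alone were 6 (Dlx3, Hoxd3, Irx3, Lhx1, Pax8 and Tbx5), in WAT alone 3 (Hoxa10, Hoxc8 and Hoxc9) and in liver alone 2 (Irx1 and Lhx2). These counts depend on the limit: with the median of all probe sets, a signal of 30.4, 20 genes passed in BAT, 24 in WAT and 10 in liver, of them 2 in BAT alone and 7 in WAT alone.

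The other 23 genes passed in no tissue: Dlx1, Hoxa11, Hoxb13, Hoxd1, Hoxd10, Hoxd11, Irx2, Irx4, Irx5, Lhx4, Lhx5, Lhx9, Msx2, Pax1, Pax2, Pax4, Pax6, Pax9, Pbx4, Six3, Six6, Tbx19 and Tbx4. Their means lay between 2.02 and 12.5 in BAT, between 1.31 and 10.7 in WAT and between 2.14 and 14.3 in liver. By highest tissue mean, closest above the limit were Hoxb7, Pax8 and Hoxd3 (18.1, 18.4 and 19.8). Closest below it were Irx5, Pbx4 and Tbx19 (11.7, 12.3 and 14.3). Some means in a single tissue lay closer, among them Hoxa7 (17.4) and Hoxc5 (17.7) in BAT, and Hoxb4 (16.9) and Lhx1 (16.8) in liver. The tissues in which these genes count as above background therefore rest on small margins. Irx5 has a second, dimmer probe set that averaged 17.7 in BAT, 3.37 in WAT and 3.97 in liver, a pattern that the chosen probe set did not show. Tbx2, above background in all 3 tissues by its chosen probe set, has another that averaged 26.5 in BAT, 24.9 in WAT and 16.2 in liver. The latter mean is under the limit. A further Tbx2 probe set was under it in every tissue. Hoxc10, Tbx15, Tbx1, Pax3, Six2, Lhx6 and Lhx8, which are known from work on fat depots, were not analysed here.

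The 250 bases before the start of 5 genes are shown as examples of genes with a large difference between tissues: Tbx5 and Irx3 were highest in BAT, Hoxa9 and Hoxa10 in WAT, and Irx1 in liver. The sequences are RefSeq's for the rat build GRCr8, read 5′ to 3′ on the strand of the gene. Their positions are chr12:42395360-42395609 on the minus strand for Tbx5, chr19:31384868-31385117 on the plus strand for Irx3, chr4:82657049-82657298 on the minus strand for Hoxa9, chr4:82671491-82671740 on the minus strand for Hoxa10, and chr1:33122872-33123121 on the plus strand for Irx1. Capitals mark the letters TGACAG, the core that Meis proteins bind, and the letters TATAAA.
Tbx5: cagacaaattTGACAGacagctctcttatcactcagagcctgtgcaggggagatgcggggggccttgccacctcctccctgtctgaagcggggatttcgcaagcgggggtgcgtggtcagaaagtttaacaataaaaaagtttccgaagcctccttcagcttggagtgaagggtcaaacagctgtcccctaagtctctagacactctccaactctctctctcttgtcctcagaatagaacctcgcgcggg
Irx3: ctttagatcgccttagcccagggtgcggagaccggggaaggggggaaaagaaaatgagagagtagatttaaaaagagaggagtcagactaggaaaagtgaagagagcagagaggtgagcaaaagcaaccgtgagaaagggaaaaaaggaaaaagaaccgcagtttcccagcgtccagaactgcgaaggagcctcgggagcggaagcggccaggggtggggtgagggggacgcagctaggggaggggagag
Hoxa9: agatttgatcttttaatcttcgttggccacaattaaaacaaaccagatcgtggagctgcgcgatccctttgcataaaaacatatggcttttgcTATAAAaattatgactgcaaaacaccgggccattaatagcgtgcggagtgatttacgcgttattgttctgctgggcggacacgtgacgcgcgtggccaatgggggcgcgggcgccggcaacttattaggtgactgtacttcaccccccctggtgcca
Hoxa10: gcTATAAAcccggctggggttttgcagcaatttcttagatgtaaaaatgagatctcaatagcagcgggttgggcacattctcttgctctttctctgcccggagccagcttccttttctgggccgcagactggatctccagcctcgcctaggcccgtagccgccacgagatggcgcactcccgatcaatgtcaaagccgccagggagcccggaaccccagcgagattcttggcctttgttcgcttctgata
Irx1: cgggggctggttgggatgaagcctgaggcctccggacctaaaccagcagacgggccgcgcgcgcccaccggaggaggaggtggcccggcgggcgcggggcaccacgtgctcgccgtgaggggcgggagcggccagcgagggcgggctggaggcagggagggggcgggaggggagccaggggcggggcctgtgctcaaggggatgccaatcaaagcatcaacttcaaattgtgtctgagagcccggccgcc

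Tbx5 held the Meis core, Hoxa9 and Hoxa10 each held 1 TATAAA match and Irx3 and Irx1 held none of the motifs searched. Such a stretch was at hand for 40 of the 59 genes and for 27457 genes in all. On either strand, TGACAG was present in 7 of the 40 (17.5%, against 15.6% of all), TATAAA in 3 (7.5%, against 13.1%; Hoxa9, Hoxa10 and Tbx19), the homeodomain core TAATTA in 2 (5.0%, against 4.9%), the joint Pbx and Hox site TGATNNAT in 1 (2.5%, against 7.8%) and the T-box half-site AGGTGTGA in 0 (against 1.0%). Matches of different motifs overlapped in 0 of the 40 stretches. The stretches of the 40 genes were richer in G and C, at a median of 60.8% against 52.0% for all genes, and in CpG, at a median observed-to-expected ratio of 0.72 against 0.41. A match is a description of the letters and no evidence of binding.

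Between the fat depots, Hox genes of higher number in the Hoxa and Hoxc clusters were far lower in BAT than in WAT, Hoxa5 was higher in BAT, and the Hoxd genes showed no called difference among those above background. Tbx5 and Irx3 were the other factors with a large excess in BAT. Over all 59 genes, 24 were called, 13 higher and 11 lower in BAT, where 48.4% of all genes were called (23.8% higher, 24.6% lower), so the number called is no larger than over the whole array. For 9 of them the 8 BAT and 8 WAT arrays did not overlap, as for 14.6% of all genes. The median difference of the 59 genes was 0.34, against 0.03 over all genes. Of the 24, 7 (Hoxd11, Irx4, Lhx2, Lhx5, Msx2, Pax4 and Six6) were below background in both depots and are not described as depot differences; the call of Pax4 was lost with the animal as a block (adjusted p = 0.0529).

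**Figure D1:**
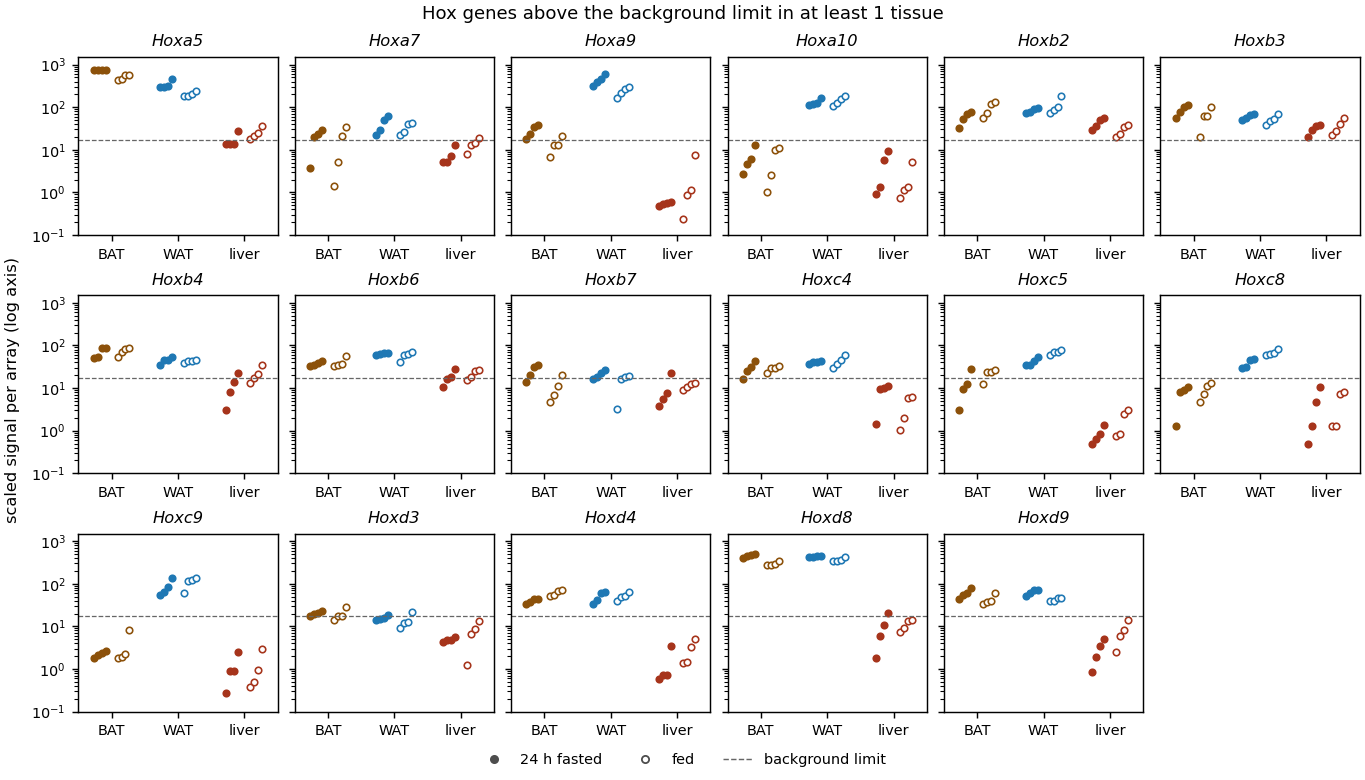
Scaled signal (log axis) of the 17 Hox genes above background in at least 1 tissue, 1 point per array, sorted by value within each group of 4 (filled, 24 h fasted; open, fed), with the background limit of 17.2 dashed. Hoxa9, Hoxa10, Hoxc8 and Hoxc9 stand apart in WAT, while Hoxd4, Hoxd8 and Hoxd9 lie at like levels in BAT and WAT and near or below the limit in liver.

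In the Hoxa cluster, on chromosome 4, the direction changed with the number of the gene. Hoxa5, which takes part in forming the neck and upper trunk and the lung, had a lowest, median and highest signal of 435, 654 and 761 in BAT, against 180, 269 and 451 in WAT. A single WAT array, that of fasted animal 9, reached into the BAT range. The log2 difference was 1.24 (SE 0.14, adjusted p = 9.89e-08). Hoxa7 went the other way, with 1.40, 20.5 and 34.6 in BAT, against 22.4, 35.0 and 63.0 in WAT (log2 difference -1.33, SE 0.41, adjusted p = 0.00981). Its groups overlapped, and it was not called in fed arrays alone (-1.50, adjusted p = 0.0681).

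Hoxa9, a gene of the lower trunk level that is also known for its part in blood stem cells, had 6.70, 19.5 and 38.3 in BAT, against 166, 306 and 586 in WAT. The depots did not overlap, and the lowest WAT array lay well above the highest BAT array. The log2 difference was -3.93 (95% interval -4.48 to -3.38, adjusted p = 9.59e-12). Hoxa10, its neighbour in the cluster and known for the uterus and the lumbar vertebrae, had 1.02, 5.43 and 12.7 in BAT, against 109, 126 and 185 in WAT. All BAT arrays were under the background limit and all WAT arrays were above it, so the level in BAT was at least 7.13-fold lower, set against that limit (fitted log2 difference -4.25, adjusted p = 2.58e-10). Hoxa11, next in the cluster, was below background in every tissue.

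The Hoxc cluster, on chromosome 7, held 3 genes lower in BAT and 1 not called among the 4 measured. Hoxc4 had 16.4, 29.5 and 43.2 in BAT, against 30.2, 40.7 and 58.6 in WAT, which overlapped, and its log2 difference of -0.52 (95% interval -1.10 to 0.07) was not called. Hoxc5 had 3.13, 18.2 and 28.3 in BAT, against 34.6, 56.4 and 77.0 in WAT (log2 difference -1.69, SE 0.28, adjusted p = 1.78e-05), without overlap. Hoxc8, a gene of the lower rib and forelimb nerve level, had 1.30, 8.51 and 13.5 in BAT, against 29.5, 53.9 and 81.6 in WAT. Its BAT arrays were all under the limit, so that it was at least 2.75-fold lower there (fitted log2 difference -2.50, adjusted p = 2.41e-06).

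Hoxc9, a gene of the lower trunk level known in mouse work as a mark of white rather than brown fat, was below background in BAT as well. It had 1.83, 2.16 and 8.23 in BAT, against 54.9, 99.7 and 135 in WAT. The BAT arrays were all under the limit and the WAT arrays all above it, and the bound was at least 4.83-fold lower in BAT (fitted log2 difference -4.36, 95% interval -4.92 to -3.79, adjusted p = 2.12e-12). A fitted difference of a gene below the limit depends on the pseudocount: with one of 16 in place of 1.90 the smallest sizes were reached, -2.51 for Hoxc9 and -2.78 for Hoxa10, and both stayed called. The order of these 2 genes turns with the pseudocount.

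**Figure D2:**
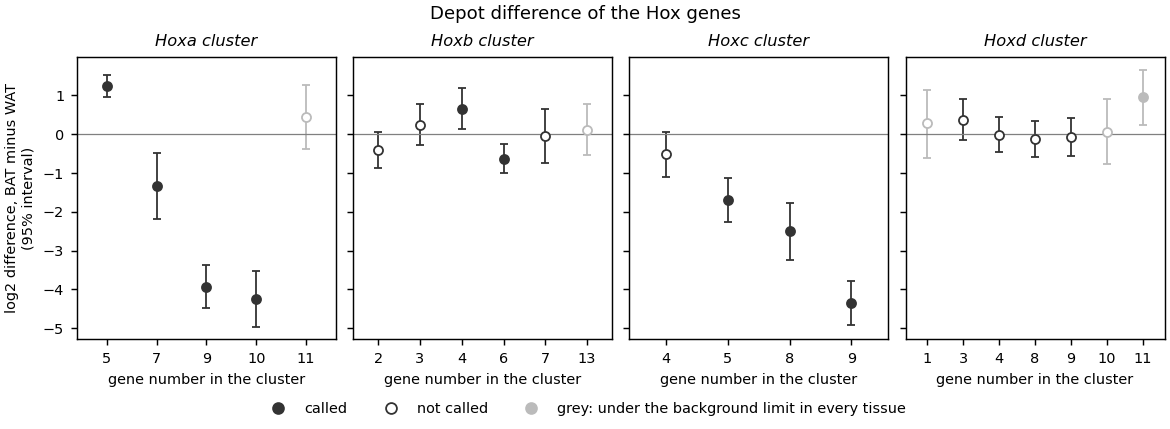
Log2 difference of each of the 22 Hox genes, BAT minus WAT, with its 95% interval (8 arrays each), ordered by gene number within each cluster; filled points are called, open points are not, and grey points are genes below background in every tissue. Fitted values run between 1.24 for Hoxa5 and -4.25 for Hoxa10 and between -0.52 for Hoxc4 and -4.36 for Hoxc9, those of Hoxa10, Hoxc8 and Hoxc9, below the limit in BAT, depend on the pseudocount, and the black points of the Hoxd cluster stay between -0.13 and 0.38.

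The Hoxb and Hoxd genes above background, on chromosomes 10 and 3, differed little between the depots. Hoxb5, Hoxb8 and Hoxb9 were not among the genes analysed. The highest-numbered Hoxb gene above background was Hoxb7, which stood at the limit (means of 18.1 in BAT and 17.6 in WAT). Whether Hoxb8 and Hoxb9 differ as Hoxc8, Hoxa9 and Hoxc9 did was therefore not tested. In the Hoxb cluster, Hoxb4 was higher in BAT, with 50.8, 76.9 and 88.0 against 34.1, 43.9 and 53.5 in WAT (log2 difference 0.66, SE 0.25, adjusted p = 0.0326). The lowest 3 BAT arrays lay below the highest WAT array, and the call was lost in fed arrays alone (adjusted p = 0.0571) and with the scan day as a block (adjusted p = 0.121). Hoxb6 was lower, with 33.1, 36.3 and 57.0 in BAT against 41.0, 64.0 and 68.4 in WAT (log2 difference -0.63, SE 0.18, adjusted p = 0.00555). Hoxb2 (-0.40, 95% interval -0.86 to 0.07), Hoxb3 (0.25, interval -0.27 to 0.78) and Hoxb7 (-0.05, interval -0.74 to 0.64) were not called, and Hoxb13 was below background.

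Hoxd8, a gene of the trunk level, was bright in both depots, with 279, 369 and 491 in BAT against 336, 415 and 446 in WAT, and its interval from -0.58 to 0.33 leaves out differences of the size seen for the higher-numbered Hoxa and Hoxc genes. The same holds for Hoxd4, with 32.7, 48.0 and 70.7 in BAT against 33.8, 50.2 and 64.2 in WAT (interval -0.46 to 0.44), and for Hoxd9, with 33.2, 49.0 and 81.5 in BAT against 38.4, 49.3 and 72.5 in WAT (interval -0.56 to 0.43). The groups of all 3 genes overlapped across most of their range. Hoxd3 stood at the limit, with a mean of 19.8 in BAT and 14.8 in WAT (difference 0.38, interval -0.16 to 0.92). Hoxd9 and Hoxa9 are paralogues, that is, copies of the same place in different clusters, and Hoxa9 and Hoxc9 had large depot differences where Hoxd9 had none called.

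Among the other families, Tbx5, the T-box factor of the forelimb and the heart, was higher in BAT, with 31.9, 50.6 and 64.3 against 2.18, 9.83 and 19.0 in WAT. The lowest BAT array lay above the highest WAT array (log2 difference 2.16, 95% interval 1.57 to 2.76, adjusted p = 9.47e-07). Irx3, an Iroquois homeobox gene known in limb and nerve patterning and from work on obesity variants near the human FTO gene, had 35.1, 46.9 and 73.9 in BAT, against 3.56, 10.0 and 20.4 in WAT. Its groups did not overlap either (log2 difference 2.14, interval 1.46 to 2.83, adjusted p = 8.39e-06). The other probe sets of Irx3 were under the limit in every tissue. Their means were 2.42 and 13.9 in BAT, 0.82 and 7.30 in WAT, and 3.81 and 8.85 in liver. Their log2 differences between the depots were smaller, at 0.38 and 0.99. Six5, a homeobox factor known in mouse from the lens and in human from the myotonic dystrophy locus, was above background in both depots, at 78.3, 105 and 144 in BAT against 52.4, 65.7 and 76.5 in WAT, again without overlap (log2 difference 0.70, SE 0.18, adjusted p = 0.0019).

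Pax8, a factor of thyroid and kidney, and Lhx1, a LIM homeobox factor of kidney and head, passed the limit in BAT by little, with means of 18.4 and 20.8, against 7.29 and 11.5 in WAT. Their log2 differences were 1.09 (adjusted p = 0.00057) and 0.80 (adjusted p = 0.00641), and all WAT arrays of both genes were under the limit, so that the bounds were at least 1.00-fold for Pax8 and 1.18-fold for Lhx1. Dlx3, Dlx5, Tbx2, Tbx3, Tbx18, Six4, Msx1, Meis3 and Pbx2 were above background in a depot and not called, with differences between -0.38 for Tbx18 and 0.57 for Six4. Tbx18, in mouse work an early mark of pericytes and of the outer layer of the heart, had 37.2, 60.4 and 81.2 in BAT against 61.1, 72.1 and 128 in WAT (interval -0.97 to 0.20).

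Of the Hox partners, Meis1, Meis2 and Pbx3 were lower in BAT, and Meis3, Pbx2 and Pbx4 were not called. Meis2 had 23.7, 42.9 and 65.2 in BAT, against 77.1, 124 and 183 in WAT, without overlap (log2 difference -1.48, SE 0.21, adjusted p = 2.35e-06). Meis1 had 138, 197 and 299 in BAT against 270, 304 and 387 in WAT (log2 difference -0.66, SE 0.10, adjusted p = 5.56e-06), and Pbx3 had 136, 180 and 223 in BAT against 197, 277 and 374 in WAT (log2 difference -0.63, SE 0.12, adjusted p = 7.73e-05). Both had some overlap. Pbx2 differed by -0.16 (interval -0.39 to 0.07) and Meis3 by 0.40 (interval -0.04 to 0.84), neither of them called.

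**Figure D3:**
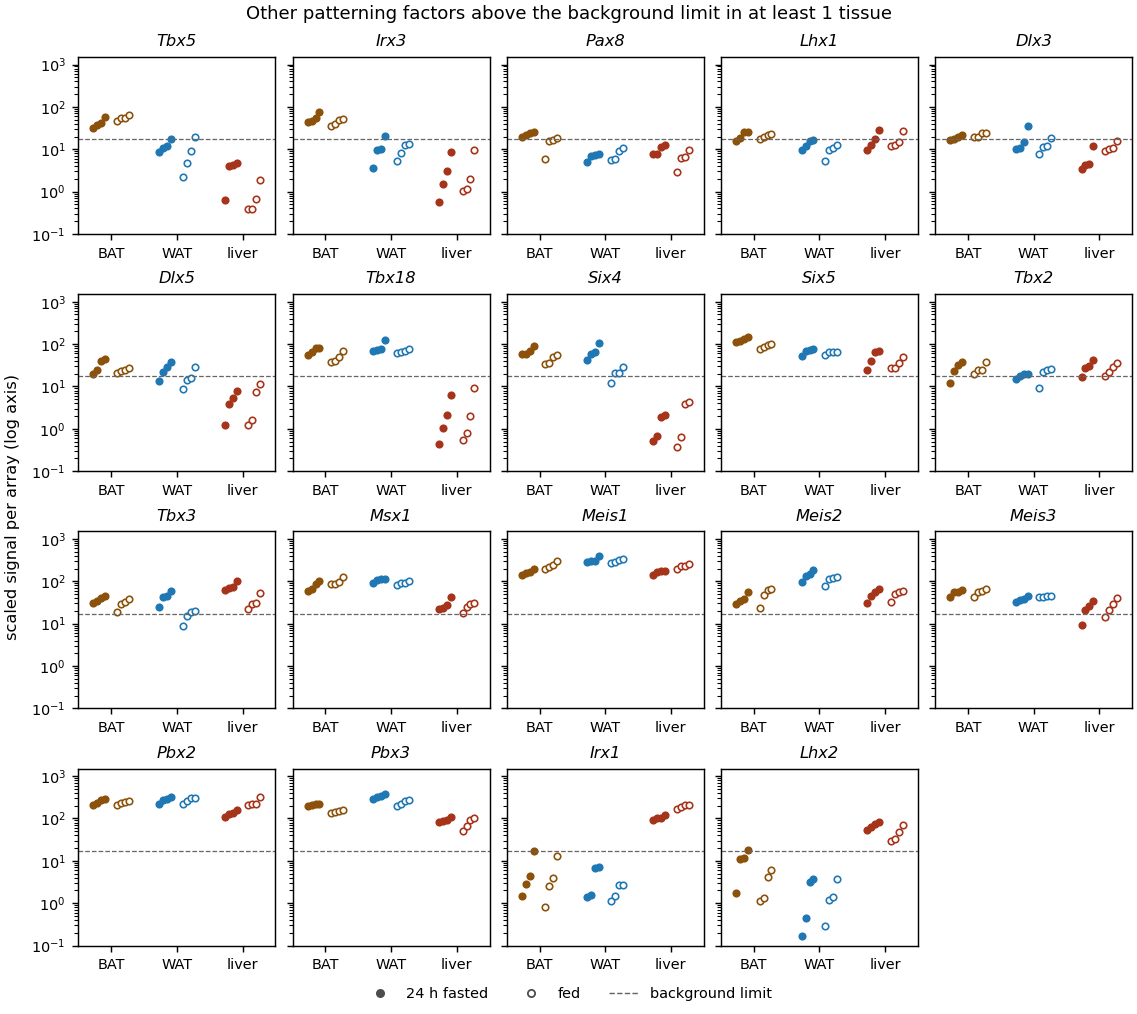
Scaled signal (log axis) of the 19 other patterning factors above background in at least 1 tissue, 1 point per array, sorted by value within each group of 4 (filled, 24 h fasted; open, fed), with the background limit of 17.2 dashed. Tbx5 and Irx3 are above the limit on every BAT array and on at most 2 WAT arrays, and Irx1 and Lhx2 are above it on every liver array.

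The largest depot differences were still called without the arrays richest in muscle markers. In fed rats alone, and without the fed BAT array of animal 5, the log2 difference was -4.22 for Hoxa9, -4.74 for Hoxa10, -2.83 for Hoxc8, -4.34 for Hoxc9, 1.28 for Hoxa5, 2.67 for Tbx5 and 1.96 for Irx3, all still called. In the same arrays Meis1 (-0.27, adjusted p = 0.198), Six5 (0.45, adjusted p = 0.185), Hoxb6 (-0.68, adjusted p = 0.0893) and Pax8 (0.57, adjusted p = 0.39) were no longer called. Leaving out the WAT arrays of animals 1, 6 and 8, which were rich in lymphoid markers, gave -4.14 for Hoxa9, -4.38 for Hoxa10 and -4.69 for Hoxc9. Summed mesothelial markers ran from 344 to 453 in fasted BAT and from 286 to 427 in fed BAT, against 321 to 1628 in fasted WAT and 175 to 372 in fed WAT, and summed macrophage markers from 3146 to 4649 and from 2408 to 4019 in fasted and fed BAT, against 5779 to 8876 and 4467 to 5887 in fasted and fed WAT. The fed BAT arrays other than that of animal 5 still had summed muscle signals of at least 4905, against at most 2142 in fed WAT. The part of muscle, mesothelial, macrophage and fibroblast content in the depot differences was not tested.

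Against liver, more of the 59 genes were called higher than lower in fat, as over all genes, and Irx1 and Lhx2 were among the lower. In BAT against liver 29 of 59 genes were called, 26 higher and 3 lower, where 63.6% of all genes were called (41.1% higher, 22.5% lower). The arrays did not overlap for 21 genes (31.4% of all genes), and the median difference was 0.62, against 0.28 over all genes. In WAT against liver 34 were called, 30 higher and 4 lower (59.7% of all genes, 37.7% higher and 21.9% lower), 21 without overlap (30.1%), with a median of 0.64 against 0.17. Taken over both directions, the shares of called genes are no larger than over the array as a whole. By direction, the share called higher was near that over all genes in BAT and above it in WAT. The shares called lower were below those over all genes. The median over all genes moved with the scaling, from 0.28 to 0.10 or -0.05 in BAT against liver and from 0.17 to 0.02 or -0.25 in WAT against liver.

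Hoxd8 and Hoxa5 were bright in fat and near or below the limit in liver. Hoxd8 had 279, 369 and 491 in BAT and 336, 415 and 446 in WAT, against 1.82, 10.1 and 20.6 in liver (log2 difference 5.05 for BAT and 5.18 for WAT, adjusted p = 1.73e-16 and 1.03e-16). Hoxa5 was 4.81 higher in BAT and 3.57 higher in WAT on the log2 scale, with liver arrays from 13.6 to 35.7 around the limit. Hoxa9 was 6.72 higher in WAT on the fitted scale and at least 16.4-fold higher against the limit, and 2.80 higher in BAT, where it was near the limit itself. Hoxa10 and Hoxc9 were higher in WAT than in liver by 4.94 and 4.97 (at least 7.13-fold and 4.83-fold), while BAT and liver, both below background, were not set against each other.

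Several genes were above background in both fats and on no liver array. Hoxd4 was 3.77 higher in BAT and 3.78 higher in WAT (at least 2.65-fold and 2.67-fold), Hoxd9 3.06 and 3.13 (at least 2.70-fold and 2.82-fold) and Hoxc4 2.13 and 2.65 (at least 1.56-fold and 2.23-fold). Hoxc5 was 2.46 higher in BAT, where it was near the limit and no bound could be given. In WAT it was 4.16 higher (at least 2.88-fold). The groups of these 4 genes did not overlap with liver. A second, dimmer probe set of Hoxc4 averaged 18.2 in BAT, 18.9 in WAT and 10.3 in liver, a smaller gap than that of the chosen one. Hoxc8 in BAT against liver was called at adjusted p = 0.0494 with both tissues below background, and not with the animal as a block (adjusted p = 0.0574).

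In the other families, Six4, a homeobox factor of muscle and kidney development, had 33.9, 56.4 and 92.1 in BAT and 12.1, 35.8 and 105 in WAT, against 0.38, 1.28 and 4.31 in liver. Its fitted differences were 4.02 for BAT and 3.45 for WAT (at least 2.93-fold and 1.98-fold), and no fat array overlapped with liver. Tbx18 was 3.90 higher in BAT and 4.28 higher in WAT (at least 3.12-fold and 4.07-fold). Tbx5 was 3.76 higher in BAT (at least 2.59-fold), and Irx3 3.47 higher (at least 2.62-fold). Msx1, a homeobox factor of the skull and limb, was above background everywhere and 1.62 higher in BAT and 1.81 higher in WAT, both without overlap with liver.

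Irx1, the Iroquois gene next in kind to Irx3, was the reverse. It had 0.815, 3.36 and 16.7 in BAT and 1.11, 2.12 and 7.20 in WAT, against 94.2, 143 and 214 in liver. No fat array passed the limit, and the level was at least 7.56-fold lower in either fat (fitted log2 differences -4.56 and -4.97, adjusted p = 1.04e-11 and 1.97e-12). A second probe set of Irx1 was under the limit in all 3 tissues, with means of 3.97 in BAT, 2.09 in WAT and 3.45 in liver, and did not show this. Lhx2, a LIM homeobox factor that in mouse liver is a mark of stellate cells, had 1.10, 5.16 and 17.8 in BAT and 0.17, 1.31 and 3.75 in WAT, against 30.1, 58.2 and 81.0 in liver (log2 differences -2.99 and -4.04), without overlap. Tbx3, a T-box factor of limb, breast and liver growth, was lower in BAT than in liver by 0.57 and in WAT by 0.91, with overlapping arrays. Between BAT and liver its sign turned to 0.033 with the muscle level in the fit and to 0.039 in fed arrays without the BAT array of animal 5. The 3 other probe sets of the gene were below background in every tissue.

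The Hox partners other than Pbx4 were above background in all 3 tissues. Meis1 was higher in WAT than in liver by 0.69 and did not differ by a called amount between BAT and liver (0.03, interval -0.17 to 0.24), and Meis2 behaved alike, with 1.32 for WAT and -0.16 (interval -0.59 to 0.27) for BAT. Pbx3 was higher in both fats, by 1.07 in BAT and 1.70 in WAT, and Pbx2 by 0.45 and 0.61. Meis3 was higher by 1.21 in BAT and 0.81 in WAT. The sign of Meis1 between BAT and liver moved with the scaling.

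Few of the 59 genes were called for the 24 h fast, and 23 of the 59 were below background in every tissue. In BAT 5 genes were called, 4 higher and 1 lower in fasted rats (17.9% of all genes, 9.36% higher and 8.55% lower), and for 7 genes the 4 fasted and 4 fed arrays did not overlap (22.1%). In WAT 7 were called, 5 higher and 2 lower (11.4%, 5.35% higher and 6.06% lower), and 9 did not overlap (17.9%). In liver 4 were called, 1 higher and 3 lower (11.5%, 5.92% higher and 5.6% lower), and 4 did not overlap (17.6%). The share of the 59 genes called is below that over all genes in BAT and liver and near it in WAT. All called genes were above background in their tissue. Among the members above background in the tissue, 5 of 31 were called in BAT (16.1%), 7 of 28 in WAT (25.0%) and 4 of 15 in liver (26.7%). The shares over all genes also count genes below background and cannot be set against these. The matching shares over all genes above background are not given here, so no excess among the members can be read from them. Medians over the 59 genes were -0.02 in BAT, 0.17 in WAT and -0.18 in liver, against 0.01, 0.03 and 0.01 over all genes.

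**Figure D4:**
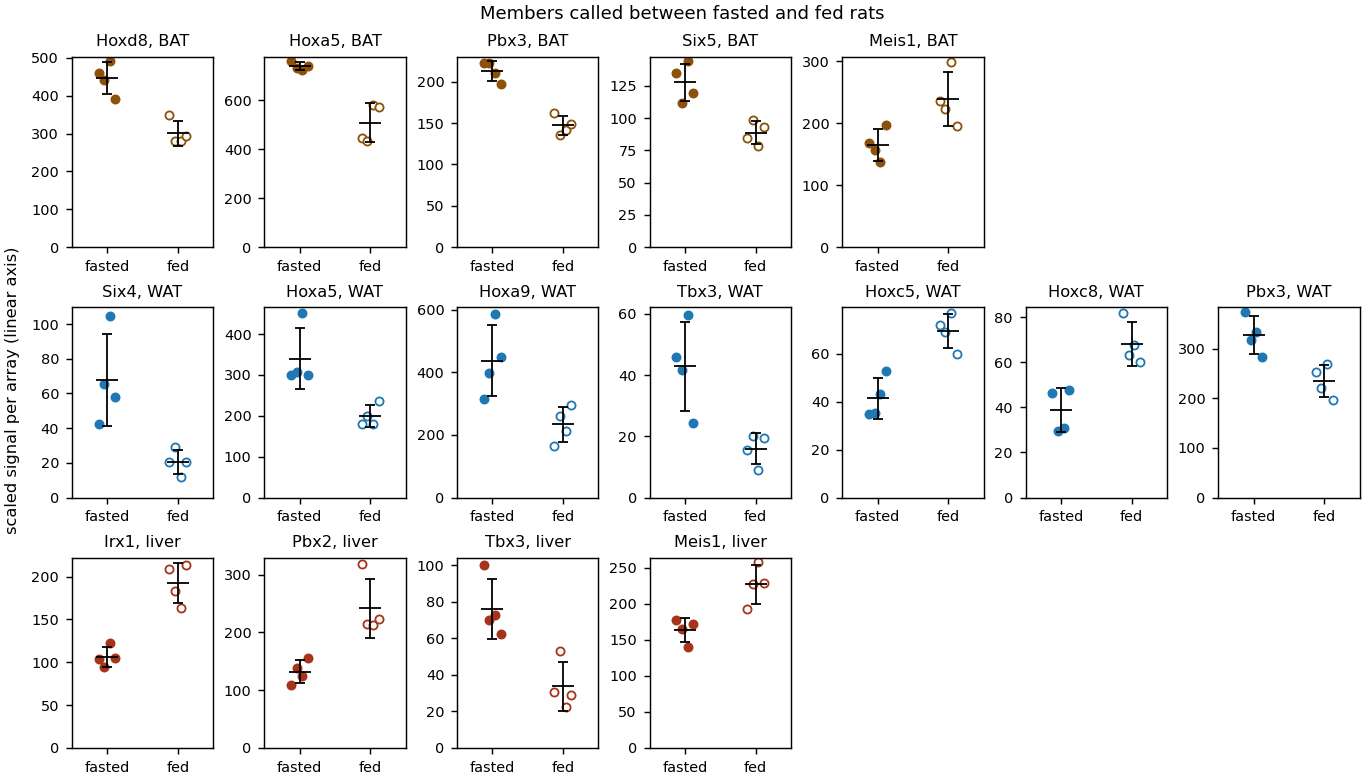
Scaled signal (linear axis from 0) of the members called between fasted and fed rats in BAT (top row), WAT (middle row) and liver (bottom row); each point is 1 rat, the horizontal bar is the mean and the whiskers the SD of n = 4. Hoxa5 is called in BAT (741 fasted, 510 fed) and in WAT (340 fasted, 199 fed), and Six4 has the largest change of a called member (67.8 fasted, 20.4 fed in WAT).

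In BAT, Hoxd8 had 460, 442, 491 and 391 in fasted rats, against 348, 281, 279 and 293 in fed rats. Every fasted array was above every fed one (log2 change 0.57, SE 0.11, adjusted p = 0.00547). Hoxa5 had 761, 733, 727 and 743 in fasted BAT, against 449, 435, 582 and 573 in fed BAT, again without overlap, and the fasted arrays were the less spread (log2 change 0.55, SE 0.11, adjusted p = 0.00674). Pbx3, a partner of Hox proteins, rose as well, with 222, 223, 211 and 197 in fasted BAT against 162, 136, 142 and 149 in fed BAT (log2 change 0.53, adjusted p = 0.00828).

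Six5 had 135, 112, 144 and 119 in fasted BAT, against 84.5, 98.1, 78.3 and 93.3 in fed BAT (log2 change 0.51, adjusted p = 0.0353), without overlap. Meis1 fell, with 168, 156, 138 and 198 in fasted BAT against 236, 223, 299 and 196 in fed BAT (log2 change -0.52, adjusted p = 0.0423), and fed animal 5 lay within the fasted range. Six4 (69.9 ± 15.8 in fasted BAT, 43.4 ± 10.4 in fed BAT; SD, n = 4 each) and Hoxd4 (39.4 ± 5.71 in fasted BAT, 61.1 ± 9.14 in fed BAT) had no overlap and were not called (adjusted p = 0.0777 and 0.0676). The 4 fasted BAT arrays were also those with the most muscle RNA. When the level of the muscle markers was added to the fit, no member was called (adjusted p from 0.268 to 0.831), and the changes were 0.52 for Hoxd8, 0.43 for Hoxa5, 0.45 for Pbx3, 0.42 for Six5 and -0.18 for Meis1. Of these, Meis1 is the one whose size moved by more than 1.5 times.

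In WAT, Six4 changed most. It had 42.7, 65.6, 105 and 57.9 in fasted rats, against 20.3, 28.9, 12.1 and 20.4 in fed rats, without overlap (log2 change 1.62, SE 0.32, adjusted p = 0.0103). Tbx3 had 46.0, 41.6, 59.5 and 24.4 in fasted WAT, against 15.5, 20.1, 8.95 and 19.3 in fed WAT (log2 change 1.31, SE 0.34, adjusted p = 0.0314). Hoxa5 had 300, 307, 451 and 301 in fasted WAT, against 180, 200, 180 and 237 in fed WAT, and fasted animal 9 stood above the other 3 (log2 change 0.75, SE 0.16, adjusted p = 0.0131).

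Hoxa9, one of the genes far higher in WAT than in BAT, rose too, with 316, 397, 586 and 448 in fasted WAT against 166, 262, 213 and 296 in fed WAT (log2 change 0.89, SE 0.22, adjusted p = 0.0252). Its neighbour Hoxa10 had 114, 117, 164 and 125 in fasted WAT, against 109, 152, 126 and 185 in fed WAT, which overlap, and was not called. Pbx3 had 374, 317, 334 and 284 in fasted WAT, against 252, 221, 269 and 197 in fed WAT (log2 change 0.48, adjusted p = 0.0417). The groups of the called genes did not overlap.

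The genes of the Hoxc cluster that changed in WAT went down. Hoxc5 had 34.6, 35.1, 43.0 and 52.8 in fasted WAT, against 71.8, 68.9, 77.0 and 60.0 in fed WAT (log2 change -0.74, SE 0.19, adjusted p = 0.0361). Hoxc8 had 46.3, 29.5, 31.0 and 47.8 in fasted WAT, against 81.6, 63.0, 67.5 and 60.0 in fed WAT (log2 change -0.81, SE 0.22, adjusted p = 0.0402). Hoxc9 overlapped between the states, with 62.6, 54.9, 82.0 and 135 in fasted WAT against 61.0, 119, 117 and 135 in fed WAT, and was not called. Without the fasted arrays of animals 8 and 10, which were rich in muscle markers, Hoxc5 (-0.81, adjusted p = 0.0769), Hoxc8 (-0.80, adjusted p = 0.112), Hoxa9 (0.91, adjusted p = 0.113), Pbx3 (0.60, adjusted p = 0.0711) and Six4 (1.68, adjusted p = 0.0644) were no longer called. Hoxa5 (0.89, adjusted p = 0.038) and Tbx3 (1.65, adjusted p = 0.0413) remained called. Without the arrays rich in lymphoid markers (fed animal 1, fasted animals 6 and 8), Hoxa9 alone remained called (1.00, adjusted p = 0.0317), and Hoxa5 had 0.84 (adjusted p = 0.0729).

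In liver, Irx1 and Pbx2 fell and Tbx3 rose. Irx1 had 104, 94.2, 123 and 105 in fasted liver, against 209, 184, 163 and 214 in fed liver (log2 change -0.84, SE 0.14, adjusted p = 0.00339). Pbx2 had 109, 138, 124 and 157 in fasted liver, against 319, 214, 213 and 223 in fed liver, with fed animal 1 above the other 3 (log2 change -0.86, SE 0.17, adjusted p = 0.00684). Tbx3 had 100, 69.8, 72.6 and 62.4 in fasted liver, against 30.5, 53.2, 22.5 and 29.0 in fed liver (log2 change 1.18, SE 0.27, adjusted p = 0.0161). Meis1 had 178, 166, 140 and 172 in fasted liver, against 192, 228, 258 and 229 in fed liver (log2 change -0.46, SE 0.14, adjusted p = 0.0478). None of the 4 overlapped. The call of Irx1 was lost with the mean of its probe sets (-0.67, adjusted p = 0.152), with all 24 arrays in the fit (adjusted p = 0.294) and in animals 1, 4, 6 and 8 alone (adjusted p = 0.0526). That of Tbx3 was lost with the mean of its probe sets (0.51, adjusted p = 0.471), without fasted animal 6 (1.04, adjusted p = 0.0511) and in animals 2, 5, 9 and 10 alone (adjusted p = 0.27). Meis1 lost its call under 13 alternatives, among them 7 of the 8 that leave out 1 array, with adjusted p up to 0.349. Pbx2 lost it in animals 2, 5, 9 and 10 alone (-0.64, adjusted p = 0.0665). Lhx2, the other gene found in liver and not in fat, had 63.3, 53.2, 73.6 and 81.1 in fasted liver, against 30.0, 48.2, 33.1 and 71.5 in fed liver, which overlap, and was not called (log2 change 0.61, adjusted p = 0.198).

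Arrays of each tissue were scanned on more than 1 day, and all but 1 array (fasted WAT, animal 9) shared a day with arrays of the other state. With the scan day as a block, 7 members were called in BAT, 4 in WAT and 4 in liver. The shares over all genes in these fits are not given here. The array of fasted WAT animal 9, alone on its day, was left out of the WAT fit. In WAT Hoxc5 (adjusted p = 0.0576), Hoxc8 (adjusted p = 0.0832) and Tbx3 (adjusted p = 0.08) were no longer called. For these losses the block and the missing array cannot be told apart. Within the arrays of animals 1, 4, 6 and 8, the log2 changes were 0.53 for Hoxd8 and 0.55 for Hoxa5 in BAT, 1.64 for Six4 and 0.75 for Hoxa5 in WAT, and -0.89 for Irx1, -1.08 for Pbx2 and 1.60 for Tbx3 in liver. Within those of animals 2, 5, 9 and 10 the same genes changed by 0.61 and 0.56 in BAT, 1.61 and 0.75 in WAT, and -0.79, -0.64 and 0.75 in liver. The signs could not differ from the full comparison, because the fasted and fed arrays of each of these genes did not overlap. The size of the Tbx3 change in liver differed most between the sets.

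The fasting effects were also compared between tissues. Between BAT and WAT no member was called by limma, where 0.985% of all genes were (0.513% higher, 0.471% lower), and 3 members had an unadjusted p under 0.05 (Meis1, Tbx3 and Lhx9). Between BAT and liver 2 were called, both with a positive difference, BAT minus liver (7.56% of all genes, 3.8% higher and 3.76% lower). Hoxa5 rose in BAT, and its liver arrays, near the limit, averaged 17.3 ± 7.03 in fasted and 24.8 ± 7.78 in fed rats. The difference of the effects was 1.04 (SE 0.29, adjusted p = 0.0247). Pbx2 fell in liver and averaged 253 in fasted and 234 in fed BAT, with a difference of the effects of 0.96 (SE 0.22, adjusted p = 0.00671). Hoxa9 differed by 1.59 and was not called (adjusted p = 0.0708), but was with the animal as a block (adjusted p = 0.047).

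Between WAT and liver 3 were called, all with a positive difference, WAT minus liver (5.51% of all genes, 2.48% higher and 3.04% lower): Hoxa5 with a difference of effects of 1.25 (SE 0.29, adjusted p = 0.00898), Pbx2 with 0.89 (SE 0.22, adjusted p = 0.0151) and Six4 with 1.91 (SE 0.51, adjusted p = 0.0262). Pbx2 was the one of the 3 that fell in liver with no called change in WAT (0.03, adjusted p = 0.94). Six4 was below background on every liver array, at 1.30 in fasted and 2.32 in fed rats on average, and its log2 change in liver was -0.29 (adjusted p = 0.788). Tbx3 rose in both WAT and liver, and the difference of these effects was not called. The 3 comparisons share arrays and are not independent of one another.

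Genes that act with these factors were looked at by lists, whose counts stand beside 23.8% of all genes higher and 24.6% lower in BAT than in WAT. Of 11 cofactors and DNA partners of Hox proteins, 6 of them members, 1 was higher and 4 were lower in BAT than in WAT, with a median of -0.17 against 0.03 over all genes. The non-members among them were Pbxip1, which binds Pbx proteins (277 in BAT, 212 in WAT, log2 difference 0.38), and Tgif2, a repressor of the same homeodomain class as Meis (11.9 in BAT, 24.5 in WAT, log2 difference -0.92). The BAT mean of Tgif2 was under the background limit, so its fitted difference depends on the pseudocount. Tgif1 rose with fasting in BAT (139 in fasted, 60.4 in fed, log2 change 1.17) and in liver (220 in fasted, 110 in fed, log2 change 1.02).

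Polycomb and trithorax proteins keep Hox genes off or on. Of 16 measured, 4 were higher and 4 lower in BAT than in WAT, with a median of 0.03, the same as over all genes. Higher were Men1 (0.56), Cbx2 (0.85), a polycomb subunit, and Kdm6b (0.60), which removes the polycomb methyl mark, and lower was Rnf2 (-0.65), the ring finger subunit. With fasting, 6 rose in BAT and none fell, where 9.36% of all genes rose and 8.55% fell (median 0.36 against 0.01). Ezh1, a polycomb methyltransferase, had 347 in fasted and 195 in fed BAT (log2 change 0.83, adjusted p = 0.000225) and 356 in fasted and 205 in fed WAT (0.78, adjusted p = 0.00329), and Cbx7 119 in fasted and 49.2 in fed BAT (1.29). In WAT 2 rose and Men1 fell (-0.43), where 5.35% of all genes rose and 6.06% fell, and in liver (5.92% rose) Kdm6b (1.08) and Cbx7 (1.85) rose. Summed muscle markers were also highest in fasted BAT, and their part in these rises was not tested.

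Retinoic acid sets the reach of Hox expression in the embryo. Of 16 genes of its making, breakdown and sensing, 5 were higher and 2 lower in BAT than in WAT (median 0.04). Lower were Aldh1a3, which makes retinoic acid (30.7 in BAT, 182 in WAT, log2 difference -2.50), and Cyp26b1, which breaks it down (26.5 in BAT, 111 in WAT, -1.88). Higher were the receptors Rxrg (1.59) and Rarb (0.87). Cyp26b1 rose with fasting in WAT (168 in fasted, 54.9 in fed, log2 change 1.53). In BAT Aldh1a1, another enzyme making retinoic acid, rose (81.8 in fasted, 22.3 in fed, 1.84), and Dhrs3, which turns retinal back to retinol, fell (415 in fasted, 806 in fed, -0.97). Rarb fell in BAT (-0.95) and in liver (261 in fasted, 617 in fed, -1.24).

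Of 3 measured Eya and Dach genes, whose products act with Six4 and its relatives, Eya2 was lower in BAT than in WAT (-0.58) and rose with fasting in BAT (70.0 in fasted, 24.7 in fed, 1.42) and in WAT (80.7 in fasted, 47.5 in fed, 0.75). Of 6 LIM partners, Ldb2 (-0.65) and Lmo2 (-0.36) were lower in BAT. Of 36 further positional factors from other families, 5 were higher and 10 lower in BAT than in WAT, with a median of -0.03. Lower were Nr2f2, a nuclear receptor of veins and mesenchyme (228 in BAT, 503 in WAT, -1.13), Wt1, a factor of the lining of the body cavity and of kidney (8.17 in BAT, 51.4 in WAT, -2.54), Twist2 (-2.31) and Gata6 (16.4 in BAT, 43.7 in WAT, -1.41). Wt1 is also one of the mesothelial markers. The BAT means of Wt1 and Gata6 were under the background limit, so their fitted differences depend on the pseudocount. Of 22 genes known from the literature on fat depots, 15 were measured, all of them members: 3 were higher in BAT, 6 lower and 6 not called.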

How the data were processed

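Total RNA (2 µg per sample) was hybridised to 24 rat expression arrays. The deposited values are linear intensities per probe set, made with MAS5 per the submitters' processing notes, with no version given in the sources used here. From the deposited intensities each array was scaled to the same 2% trimmed mean, and log2(signal + 1.90), the pseudocount being the 10th percentile, was fitted with limma 3.58.1 in R 4.3.3 without a filter on low values. Tissues and differences between fasting effects were fitted on all 24 arrays by 6 group means, and fasting within a tissue on its 8 arrays. P-values were adjusted by Benjamini-Hochberg over all 14217 named genes, and the fits were tested on simulated data. Scan days came from the array experiment headers. Of 31042 probe sets after 57 controls were left out, 20826 had 1 gene symbol, 436 several and 9780 none. Symbols were updated by gene ID for 20758 and by accession for 2. Trimmed means before scaling ran from 93.3 to 206. The number of arrays limits the precision. P-values measure the spread between arrays of a group, which holds rat, dissection and scan day together. The main fits over all 24 arrays had no animal block, so arrays taken to be of the same rat counted as independent.

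Equal animal numbers in different tissues were taken to be the same rat, from the sample titles alone. Over 24 pairs of tissues and animals, deviations from the group means correlated between -0.009 and 0.153 (10449 genes), and 19 correlated best with their own number. Members and gene lists were chosen with earlier results of these data known. Named were Hox genes above the background limit, the largest called differences without overlap per tissue comparison, members called for fasting, members known from work on fat depots, and up to 4 genes of each further list in order of p. Alternatives covered scaling, pseudocount, filter, probe set choice, animal or scan day as a block, marker covariates and single arrays left out.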

Additional observations from a re-analysis of the deposited data

Results flagged for a closer look

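In 4 of 137 groups of 4 arrays tested, over 37 named members, a single array stood far from the other 3; chance flags about 1 in 20 groups. In fasted WAT, Hoxa5 in animal 9 had a signal of 451.109. In fasted liver, Hoxa5 in the same animal had 27.861. In fed liver, Pbx2 in animal 1 had 318.722. In fasted WAT, Tbx18 in animal 6 had 127.666.

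The fasting effect differed between tissues by the limma test of the difference for 3 members. Between BAT and liver the log2 difference of effects was 1.045 for Hoxa5 and 0.96 for Pbx2. Between WAT and liver it was 1.245 for Hoxa5, 0.885 for Pbx2 and 1.91 for Six4.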

How the results depend on the processing

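Of the named genes called, 10 of 18 kept their call under every alternative in BAT against WAT (Hoxa5, Hoxa9, Hoxa10, Hoxc5, Hoxc8, Hoxc9, Tbx5, Irx3, Meis2 and Pbx3), 18 of 26 in BAT against liver and 23 of 29 in WAT against liver; every fasting call was lost under at least 1. Comparisons by animal set, of fed arrays alone without the fed BAT array of animal 5, and without arrays rich in muscle or lymphoid markers were chosen after seeing the data, and the cause of the changes below was not tested. The counts below stand without the share over all genes under the same setting. A change in them can therefore not be read as particular to these genes. In BAT against WAT the number called was 12 in fed arrays alone, 14 without the fed BAT array of animal 5, 15 in animals 2, 5, 9 and 10, 8 with a filter at the 40th percentile, which leaves fewer genes, and 21 to 24 with 1 array left out. The filter gave 18 in BAT against liver (28 to 32 with 1 array left out) and 20 in WAT against liver (32 to 35). For fasting in BAT the number was 2 with median centring, 0 with the muscle level in the fit, 2 with all 24 arrays in one fit, 1 in animals 1, 4, 6 and 8, 0 in animals 2, 5, 9 and 10, and 3 to 5 with 1 array left out (3 without fed animal 4 or fasted animal 6). In WAT it was 4 with the scan day as a block, a fit without fasted animal 9. It was 3 with the muscle level, 3 with all 24 arrays and 0 in either animal set. It was 2 without arrays rich in muscle markers and 1 without those rich in lymphoid markers. With 1 array left out it was 2 to 6 (2 without fasted animal 8 or 9, 3 without fed animal 4 or 5 or fasted animal 6, 4 without fed animal 2). In liver it was 2 with the mean of all probe sets, 2 in animals 1, 4, 6 and 8, 1 in animals 2, 5, 9 and 10, and 2 to 5 (2 without fasted animal 6). For the difference of effects between BAT and liver it was 5 with the scan day as a block, 1 with the muscle level, 1 and 0 in the animal sets, and 1 to 4 (1 without the BAT array of fed animal 1 or 2 or the liver array of animal 5 or 8, 4 without the BAT array of animal 5 or the liver array of animal 1). Between WAT and liver it was 5 with a pseudocount of 16, 1 and 0 in the animal sets, and 2 to 4. Signs turned in BAT against liver: Meis1 was -0.293 with median centring, and Tbx3 was 0.033 with the muscle level and 0.039 in fed arrays without that of animal 5. With the median of all probe sets as the limit, 20 members passed in BAT, 24 in WAT and 10 in liver. With the animal as a replicate block 23, 28 and 35 members were called between the tissues and 0, 3 and 3 between the fasting effects; it changed no call other than those of Pax4, Hoxc8, Lhx4 (WAT against liver, adjusted p = 0.0349 from 0.0535) and Hoxa9. Within a tissue no paired analysis was possible because each animal appears once.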
